A study of Rattus norvegicus with 6 samples.

Results

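The actin isoform family comprised 6 genes of the 22250 in the deposited table, found by their names: Actc1, Acta1, Acta2, Actg2, Actb and Actg1. Each name had a single row, and all 6 were among the 13903 genes tested. RNA came from cultured neonatal rat cardiomyocytes, enzyme-digested from hearts of 1-day-old Sprague-Dawley rats with wild-type genotype. One group received the solvent DMSO and the other 3Cl-HBA at 40 µM, both for 48 h, with 3 libraries each. The series title names hydroxycarboxylic acid receptor 1, and the comparison asks how 3Cl-HBA changes these cells. Whether the libraries numbered 1 to 3 in a group came from separate cultures or animals is not stated, so p-values measure only the spread between these samples, which may be technical.

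Actin monomers assemble into filaments that serve as the thin filament of the sarcomere in muscle and as the cytoskeleton of every cell. Mammals carry 6 conventional actin genes, whose proteins are nearly identical and differ mostly near the amino terminus. Actc1 encodes cardiac alpha-actin, the main sarcomeric actin of the heart, and Acta1 encodes skeletal alpha-actin, which the fetal and the stressed heart also use. Acta2 and Actg2 encode the vascular and the enteric smooth muscle actins, and Actb and Actg1 encode the cytoplasmic beta and gamma actins. Several actin genes are controlled by serum response factor (SRF), which binds a DNA element called the CArG box. Its coactivators, the MRTF proteins, are held inactive by free actin monomers, so that actin assembly feeds back on actin transcription.

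Promoter sequences were taken from RefSeq (assembly GRCr8), which held an entry for 5 of the 6 members, and were searched on both strands for the CArG box and for TATAAA. Of the 33469 promoters of 300 bases in that set, 1.64% held a CArG box and 14.2% held TATAAA. The promoters of Acta1, Actc1 and Actg1 are shown from 130 bases before the annotated start to 20 bases after it. They are the 3 members with a counted CArG box in the searched window, printed in capitals together with TATAAA. Each counted box read CC, then 6 bases of A or T, then GG. The Acta2 promoter held ccttgtttgg, which has a G among the inner bases and was not counted. The Actc1 line held near matches too, such as ccctatatgg with a C among the inner bases, also not counted. A match describes these letters and is no evidence of binding.
Acta1, chr19:68784175-68784324, minus strand: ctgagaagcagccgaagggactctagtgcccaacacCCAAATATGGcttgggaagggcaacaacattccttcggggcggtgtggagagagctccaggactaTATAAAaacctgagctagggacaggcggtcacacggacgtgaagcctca
Actc1, chr3:121271808-121271957, minus strand: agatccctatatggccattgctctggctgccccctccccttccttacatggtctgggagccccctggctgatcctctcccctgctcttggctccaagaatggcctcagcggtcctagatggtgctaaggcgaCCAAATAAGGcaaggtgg
Actg1, chr10:106120932-106121081, minus strand: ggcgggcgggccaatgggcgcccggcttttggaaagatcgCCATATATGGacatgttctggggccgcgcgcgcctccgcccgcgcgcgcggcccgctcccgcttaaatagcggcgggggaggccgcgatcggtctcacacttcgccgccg
In Acta1 the CArG box began at position -94 and TATAAA at -29, counted from the annotated start. In Actg1 the CArG box began at -90. The box of Actc1 lay just downstream of its annotated start, from position 3 to 12. By transcript level these members were the first (Actc1), the fourth (Actg1) and the fifth (Acta1) of the family.

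One more row of the table matters for the cytoplasmic gamma actin. LOC100361457, named Actg1l1 in RefSeq and described in the table as similar to gamma actin, is paired there with the same protein entry as Actg1. The 50 bases after its annotated start were identical to those of Actg1, while the 250 bases before it matched at 17.6% of positions. Its promoter window is shown with the 20 bases shared with the end of the Actg1 line in capitals.
Actg1l1, chr3:93433915-93434064, plus strand: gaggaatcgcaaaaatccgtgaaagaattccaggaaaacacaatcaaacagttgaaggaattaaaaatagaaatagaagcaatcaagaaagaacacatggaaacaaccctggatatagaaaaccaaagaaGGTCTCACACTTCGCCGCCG
This row took 33.0% to 38.3% of the reads counted on the 2 rows together. Reads of the 2 genes may have been split between the rows, so the level of Actg1 is uncertain, and the other actins are also close relatives of each other.

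The libraries held 13240800 to 17202191 reads assigned to genes, and each 3Cl-HBA library was deeper than each DMSO library. No 2 libraries differed by as little as sampling noise, since chi-square comparisons of counts, scaled by their degrees of freedom, gave 2.78 to 5.14 over all pairs. The culture had high levels of cardiomyocyte markers, with Myh6 at 8457 ± 352 CPM in DMSO (read counts per 1000000 reads, mean ± SD, n = 3), and also of fibroblast markers, with Col1a1 at 10450 ± 436 CPM. Markers of skeletal muscle were low: the 8 matched genes summed to 18.4 to 21.3 CPM in DMSO and 18.9 to 20.2 CPM after 3Cl-HBA, and 5 of them had a mean under 1 CPM, among them the myogenic factors Myod1, Myog and Myf5. The smooth muscle and pericyte markers summed to 3169.6 to 3472.5 CPM in DMSO and 3259 to 3295 CPM after 3Cl-HBA. That sum was led by Des, at 1395 ± 103 CPM in DMSO, and Tagln, at 745 ± 41.0 CPM. Myh11, named after its value was seen, had 198 ± 8.76 CPM in DMSO. Whether the sum measures smooth muscle content was not tested. In such mixed RNA, fewer cells of a type and less RNA per cell cannot be told apart.

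Actin transcripts took 0.852%, 0.833% and 0.877% of all reads in the 3 DMSO libraries and 0.876%, 0.896% and 0.852% in the 3 treated ones, with replicates 1 to 3 always given in that order. Levels are compared between genes as FPKM, reads per kilobase of gene length and per 1000000 reads. Cardiac actin was the most abundant member, at 3335 ± 85.4 FPKM in DMSO (n = 3), where it ranked 9 among all genes in each library. It was followed by Actb at 1400 ± 57.7, Acta2 at 696 ± 40.6, Actg1 at 351 ± 8.72, Acta1 at 156 ± 7.98 and Actg2 at 23.9 ± 1.16 FPKM. The order was the same in all 6 libraries and no neighbours overlapped. Within a library Actc1 was 2.25 to 2.46 times as high as Actb, Actb was 1.89 to 2.13 times as high as Acta2, and Acta2 was 1.90 to 2.05 times as high as Actg1. Actg1 was 2.20 to 2.37 times as high as Acta1, and the widest step was from Acta1 to Actg2, 5.76 to 6.79 times. Gene lengths in the table were 1391 to 1489 bases for 5 members and 1128 bases for Actg1. The steps on both sides of Actg1 depend on that shorter length and on reads that may have gone to Actg1l1, whose row has 1901 bases.

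**Figure D1:**
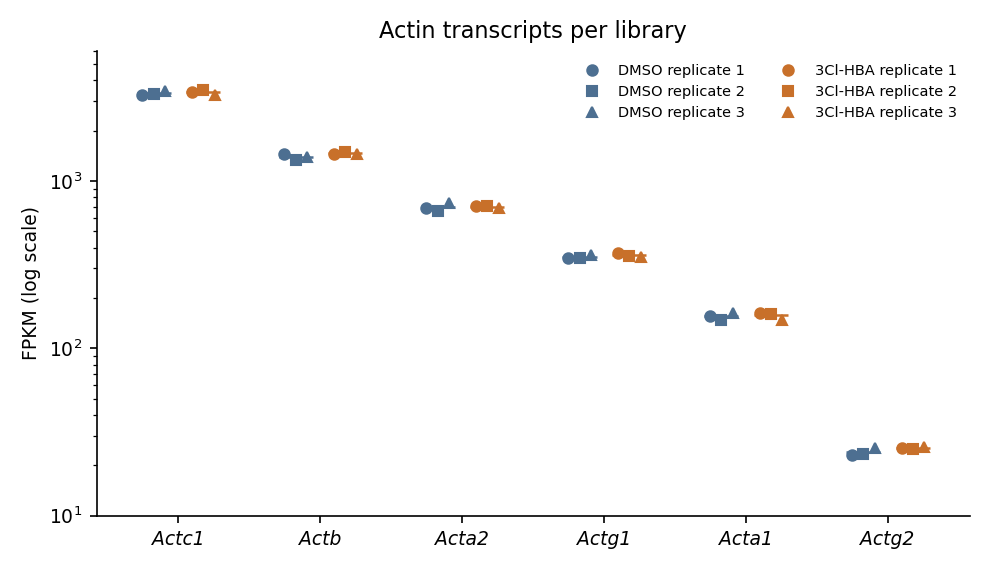
FPKM of the 6 actin transcripts (log axis) in each library, with DMSO in blue and 3Cl-HBA in orange, symbols for replicates and a line at the group mean (n = 3). The members keep 1 order from Actc1 to Actg2 in all 6 libraries, and the groups overlap for each member.

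The isoform composition varied little between libraries. As a share of the family's FPKM, cardiac actin made up 55.1%, 56.6% and 56.1% in DMSO and 55.5%, 56.2% and 55.1% after 3Cl-HBA. The cytoplasmic actins Actb and Actg1 together made up 30.3%, 29.0% and 28.7% in DMSO and 29.9%, 29.5% and 30.3% after 3Cl-HBA. For both classes the groups overlapped. The smooth muscle actins made up 11.9%, 11.8% and 12.5% in DMSO and 12.0%, 11.7% and 12.0% after 3Cl-HBA, nearly all of it Acta2, since Actg2 alone was 0.401% ± 0.012 (SD, n = 3) in DMSO. Skeletal actin made up 2.63%, 2.53% and 2.66% in DMSO and 2.67%, 2.57% and 2.49% after 3Cl-HBA. Acta1 was thus a minor sarcomeric actin in these cultures.

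None of the shares differed between the groups beyond the spread of the libraries. The differences, 3Cl-HBA minus DMSO, were -0.347 percentage points for cardiac, -0.0342 for skeletal, -0.152 for smooth muscle and 0.533 for cytoplasmic actin, with two-sided exact permutation p-values of 0.7, 0.7, 0.8 and 0.4. An exact test of 3 against 3 libraries cannot give a p below 0.1. The differences were smaller than the SD of the DMSO libraries, which was 0.774, 0.0682, 0.388 and 0.852 percentage points in that order. The direction for skeletal actin turned without 3Cl-HBA replicate 3 (0.00871) and that for smooth muscle actin without DMSO replicate 3 (0.0694). When single libraries were left out, the cytoplasmic difference ran from 0.213 without DMSO replicate 3 to 1.02 without DMSO replicate 1 (exact permutation p = 0.1 over 2 against 3 libraries, the smallest possible), and the cardiac difference from -0.765 without DMSO replicate 1 to -0.00071 without DMSO replicate 2. With Actg1l1 counted among the cytoplasmic actins, an alternative chosen after the data were seen, the DMSO share of that class was 30.7% ± 0.938 and the 3Cl-HBA share 31.2% ± 0.377 (SD, n = 3).

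**Figure D2:**
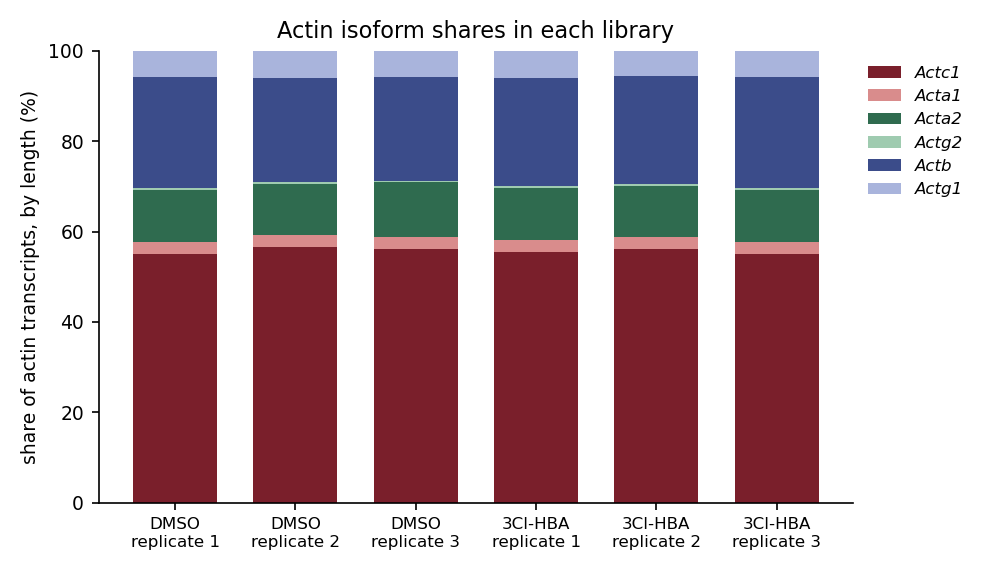
Share of each actin gene in the summed FPKM of the 6 genes, in percent, with 1 bar for each library. Actc1 fills 55.1% to 56.6% of each bar and Actg2 is the thin pale green band.

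Cardiac and skeletal alpha-actin, the sarcomeric pair, did not pass the test for a change with 3Cl-HBA. Actc1 (ENSRNOG00000008536, chromosome 3, 105507403 to 105512939, minus strand, with coordinates as the table gives them, since its genome build is not stated) had 4872, 4888 and 5128 CPM in DMSO against 5036, 5257 and 4890 CPM after 3Cl-HBA. The highest library was 3Cl-HBA replicate 2 and the groups overlapped. The log2 fold change was 0.028 with an SE of 0.040 (95% interval -0.052 to 0.108, edgeR adjusted p 0.987). Acta1 (ENSRNOG00000017786, chromosome 19, 56674074 to 56677084, minus strand) had 225, 211 and 235 CPM in DMSO against 234, 232 and 213 CPM after 3Cl-HBA. Both groups held 1 library near the low end, and all treated values lay inside the DMSO range. Its log2 fold change was 0.018 with an SE of 0.051 (95% interval -0.085 to 0.121, edgeR adjusted p 0.995), and the sign turned without DMSO replicate 2 (-0.0232), 3Cl-HBA replicate 1 (-0.0060) or 3Cl-HBA replicate 2 (-4.8e-05).

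The ratio of Acta1 to Actc1 within a library, which needs no scaling between libraries, also overlapped between the groups. On the log2 scale and per length it was -4.39, -4.48 and -4.40 in DMSO and -4.38, -4.45 and -4.47 after 3Cl-HBA. Skeletal actin thus stood at 4.67% of cardiac actin in DMSO and 4.63% after 3Cl-HBA (two-sided exact permutation p = 1). The log2 difference was -0.010, against an SD of 0.053 within DMSO. Its sign turned without DMSO replicate 1 (0.0072), DMSO replicate 3 (0.0024) or 3Cl-HBA replicate 3 (0.0075).

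The smooth muscle actins differed from each other in abundance far more than between treatments. Acta2 (ENSRNOG00000058039, chromosome 1, 252537615 to 252550394, minus strand), which activated fibroblasts and immature cardiomyocytes also express, had 952, 918 and 1033 CPM in DMSO against 979, 992 and 963 CPM after 3Cl-HBA. The treated libraries all lay between the lowest and highest DMSO library. The log2 fold change was 0.015 with an SE of 0.044 (95% interval -0.074 to 0.104, edgeR adjusted p 0.995), with its sign turned without DMSO replicate 2 (-0.0225). Actg2 (ENSRNOG00000029401, chromosome 4, 115215060 to 115239723, minus strand) had 457, 481 and 474 reads in the DMSO libraries against 525, 612 and 575 in the treated ones, or 32.7, 33.1 and 35.9 CPM and 35.8, 35.8 and 36.6 CPM. DMSO replicate 3 was above 2 of the 3 treated libraries, and the other DMSO libraries were lower. The log2 fold change of 0.089 had the widest interval of the family (SE 0.080, 95% interval -0.072 to 0.251, edgeR adjusted p 0.984).

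Within a library Actg2 stood at 3.43% of Acta2 in DMSO and 3.61% after 3Cl-HBA. The log2 ratios were -4.89, -4.82 and -4.88 in DMSO against -4.80, -4.82 and -4.75 after 3Cl-HBA, and only 3Cl-HBA replicate 2 lay inside the DMSO range. The difference of 0.073 had a two-sided exact permutation p of 0.2. Acta2 stood at 20.9% of Actc1 in DMSO and 20.7% after 3Cl-HBA, with a log2 difference of -0.011 (exact permutation p = 0.9). The sign of that difference turned without DMSO replicate 3 (0.0131) or 3Cl-HBA replicate 2 (0.0057).

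Beta-actin had the smallest p of the family and did not pass either. Actb (ENSRNOG00000034254, chromosome 12, 13715843 to 13718841, plus strand), often used as a reference gene for measuring other transcripts, had 2029, 1869 and 1956 CPM in DMSO against 2021, 2092 and 2033 CPM after 3Cl-HBA. DMSO replicate 1 was above 3Cl-HBA replicate 1, while DMSO replicates 2 and 3 were below all of them. The log2 fold change was 0.070 with an SE of 0.041 (95% interval -0.013 to 0.154, edgeR unadjusted p 0.096, adjusted p 0.975). Actg1 (ENSRNOG00000036701, chromosome 10, 109519134 to 109520846, minus strand) had 391, 388 and 409 CPM in DMSO against 417, 401 and 396 CPM after 3Cl-HBA. Only 3Cl-HBA replicate 1 was above all DMSO libraries. The log2 fold change was 0.032 with an SE of 0.046 (95% interval -0.060 to 0.124, edgeR adjusted p 0.987).

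The gamma-actin copy had its own pattern over the libraries. Actg1l1 (ENSRNOG00000053452, chromosome 3, 75643054 to 75644954, plus strand) had 243, 217 and 215 CPM in DMSO against 205, 238 and 210 CPM after 3Cl-HBA, with a log2 fold change of -0.046 (SE 0.055, edgeR adjusted p 0.986). It was lowest in 3Cl-HBA replicate 1, the library where Actg1 was highest. Per length, Actb was 3.98 times as high as Actg1 in DMSO and 4.09 times after 3Cl-HBA, and the groups overlapped (log2 difference 0.039, two-sided exact permutation p = 0.4). The ratio was computed with Actg1l1 included in 2 ways, both chosen after the data were seen. With the FPKM of both rows summed, each over its own length, the log2 ratios of Actb to gamma actin were 1.62, 1.55 and 1.56 in DMSO against 1.60, 1.64 and 1.66 after 3Cl-HBA. The groups overlapped, since 3Cl-HBA replicate 1 lay below DMSO replicate 1 (difference 0.058, exact permutation p = 0.2). With the reads of both rows summed and divided by the 1901 bases of Actg1l1, which is longer than Actg1, the log2 ratios were 2.12, 2.07 and 2.10 in DMSO against 2.15, 2.16 and 2.19 after 3Cl-HBA. The groups then did not overlap (difference 0.067, exact permutation p = 0.1, the smallest the design allows), so the overlap depended on how the rows were combined.

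**Figure D3:**
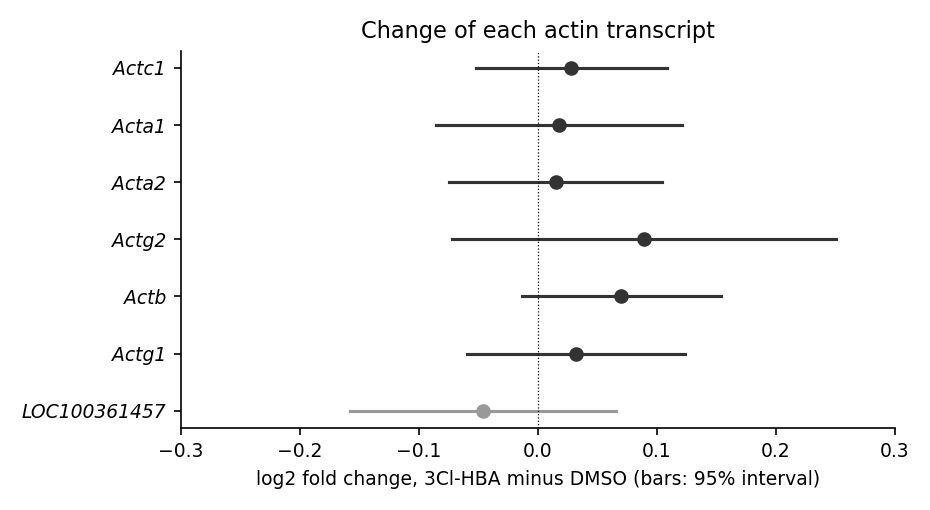
Log2 fold change of each actin transcript, 3Cl-HBA minus DMSO, with its 95% interval from edgeR, and in grey that of the gamma-actin copy LOC100361457 (Actg1l1). The points of the 6 members lie between 0.015 and 0.089 and each interval includes 0.

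Across the family, 0 of 6 members had an edgeR adjusted p under 0.05, against 0.0% of all genes tested. At an unadjusted p under 0.05 there were also 0 of 6, against 5.11% of all genes, and DESeq2 and limma-voom called 0 of 6 as well. By their CPM, 0 of 6 had groups that did not overlap, against 10.5%. All 6 fitted log2 fold changes were above 0, with a median of 0.030 against -0.00051 over all genes, of which 49.8% were above 0. The share above 0 differed with gene length, though not steadily. It was 51.5% under 1000 bases, 56.5% from 1000 to 2000, 51.3% from 2000 to 4000 and 38.9% from 4000 to 8000. For genes of 8000 bases or more it was 22.4%. Of the 1395 tested genes between 1128 and 1489 bases long, the range of the actins, 55.8% were above 0. The part of length in the actins' values was not tested. The 6 transcripts summed to 8535 ± 247 CPM in DMSO against 8755 ± 241 CPM after 3Cl-HBA (n = 3), a difference of 219.9 CPM with a two-sided exact permutation p of 0.4. Adjusted over the 9 shares, ratios and sums tested, the smallest Benjamini-Hochberg value of these permutation tests was 0.9.

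The 95% intervals give the fold changes that the spread of these libraries allows, without adjustment for the number of genes tested. They do not state how large a change the adjusted test could have called. For Actc1 the fold change, 1.02, had a 95% interval of 0.965 to 1.08, and for Acta1 the interval was 0.943 to 1.09. Those of Acta2, Actb and Actg1 reached 1.08, 1.11 and 1.09 at the upper end and 0.950, 0.991 and 0.959 at the lower. The interval of Actg2, the least abundant member, was the widest at 0.951 to 1.19. Spread between libraries exceeded counting error for the abundant members. The coefficient of variation of Acta2 over the DMSO libraries was 6.15%, where the counts alone give 0.863%, and that of Actb was 4.11%, where counts give 0.607%. For Actg2 it was 5.17%, close to the 4.61% that counting gives. In the 3Cl-HBA libraries it was 1.52% for Acta2, 1.85% for Actb and 1.33% for Actg2, where counts alone give 0.804%, 0.555% and 4.19%. The value of Actg2 was thus below its counting error there, and a coefficient from 3 libraries is uncertain.

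Regulators of actin gene transcription did not pass the test. Of 28 listed SRF and MRTF pathway genes 27 were tested, 0 passed, 13 had values above 0 and the list's median log2 fold change was -0.0045. At an unadjusted edgeR p under 0.05 there was 1 gene, the actin-binding transgelin gene Tagln2, with a log2 fold change of 0.11 (p 0.0223, adjusted p 0.959). It was named after its value was seen, as were the other genes given below at that p. Over all genes tested 5.11% were at that p, the share to set beside the count of each list. Srf itself had 116 ± 2.78 CPM in DMSO against 109 ± 3.35 CPM after 3Cl-HBA (n = 3), with groups that did not overlap (log2 change -0.085, edgeR unadjusted p 0.132, adjusted p 0.983). Its coactivators Mrtfa, at 40.5 ± 3.75 and 38.6 ± 5.63 CPM, and Myocd, at 82.1 ± 1.84 and 79.3 ± 3.43 CPM, had log2 fold changes of -0.064 and -0.049. The most abundant listed genes were the matrix protein gene Ccn2 (965 ± 33.3 and 977 ± 73.9 CPM), the kinase gene Rock2 (779.9 ± 58.8 and 757 ± 43.4 CPM) and the GTPase gene Rhoa (750.3 ± 9.80 and 774 ± 19.4 CPM). In this list 3 of 27 genes, or 11.1%, had groups that did not overlap, close to the 10.5% of all genes tested.

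Genes whose products bind actin monomers or start new filaments gave no calls. Of 19 tested genes of monomer binding and turnover 0 passed, with 10 above 0, a median of 7.5e-05, and 2 genes at an unadjusted p under 0.05, Tmsb4x and the cofilin phosphatase gene Ssh1 (log2 change -0.24). Tmsb4x, which encodes the monomer-sequestering thymosin beta-4, had 734 ± 13.7 CPM in DMSO against 789 ± 18.8 CPM after 3Cl-HBA, with groups that did not overlap (log2 change 0.10 with an SE of 0.043, edgeR unadjusted p 0.0189, adjusted p 0.959). In this list 1 of 19 genes, or 5.26%, had groups that did not overlap, against 10.5% of all genes tested. The severing factor Cfl1 had 629 ± 29.9 and 642 ± 3.72 CPM, and profilin Pfn1, which loads monomers onto growing ends, 417 ± 19.0 and 415 ± 6.69 CPM. Of 32 tested filament nucleators 0 passed and 14 were above 0, with a median of -0.022 and 1 gene at an unadjusted p under 0.05, the formin gene Fmnl3 (log2 change -0.15). The Arp2/3 complex subunits Actr3, Arpc2 and Arpc1b had log2 fold changes of 0.013, 0.056 and -0.023.

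No gene of filament ends or of actin folding passed. Of 17 tested capping and severing genes 0 passed and 11 were above 0, with a median of 0.034 and 0 genes at an unadjusted p under 0.05. Among them gelsolin Gsn had 346 ± 16.0 CPM in DMSO against 356 ± 8.18 CPM after 3Cl-HBA, supervillin Svil 309 ± 10.8 and 303 ± 6.35 CPM, and the capping protein subunit Capzb 301 ± 14.2 and 298 ± 7.84 CPM. Of 22 tested genes of folding and modification 0 passed and 14 were above 0, with a median of 0.0093 and 1 gene at an unadjusted p under 0.05, Mical3 (log2 change -0.12). The chaperonin subunits Cct5 and Cct8, which fold actin, had log2 fold changes of -0.0012 and 0.043, and Mical2, an enzyme that oxidises actin, had -0.051. Of 10 tested actin-related genes 0 passed, 9 were above 0 and the median was 0.038, led in abundance by the dynactin subunits Actr1a and Actr1b at 248 ± 12.3 and 125 ± 6.15 CPM in DMSO and 249 ± 2.33 and 126 ± 3.96 CPM after 3Cl-HBA.

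The list of filament crosslinkers and bundlers had the lowest median of the 7 lists, -0.047, with 14 of 20 tested genes below 0 and 0 passed, and with 3 genes at an unadjusted p under 0.05, Flna, Plec and Sptbn1, each with a value below 0. The median was -0.021 without 3Cl-HBA replicate 1 and -0.026 without DMSO replicate 2. Its summed level was 8713 to 8883 CPM in DMSO and 8302 to 8572 CPM after 3Cl-HBA, so the groups did not overlap. Of the 12 cardiomyocyte markers 0 passed and 8 were below 0. An unadjusted edgeR p under 0.05 was found for 3 of the 12, against 5.11% of all genes. They were Ryr2, Myh7 and Myl2, with log2 fold changes of -0.17, -0.097 and -0.14, named after their values were seen. The 12 markers summed to 18312 to 19826 CPM in DMSO and 18116 to 18849 CPM after 3Cl-HBA, with a median log2 fold change of -0.0085. The median was -0.023 for fibroblast, -0.026 for endothelial and -0.0014 for smooth muscle and pericyte markers. For macrophage and leukocyte markers it was 0.11. The part of cell types in the crosslinker list's values was not tested. Of the 20 crosslinker genes 7, or 35.0%, had groups that did not overlap, against 10.5% of all genes tested, and all 7 were lower after 3Cl-HBA. They were Flna, Flnc, Actn1, Plec, Sptan1, Nrap and Lcp1, named after their values were seen. Filamin A, Flna, which joins actin filaments into networks, had 1411 ± 23.6 CPM in DMSO against 1330 ± 17.0 CPM after 3Cl-HBA (log2 change -0.085 with an SE of 0.041, edgeR unadjusted p 0.0438, adjusted p 0.959). The spectrin gene Sptbn1 had 1357 ± 24.0 and 1275 ± 69.0 CPM, and the sarcomeric alpha-actinin Actn2 had 892 ± 47.3 and 915 ± 5.11 CPM. These genes were long: the 7 had a median length of 8038 bases in the table against 4543.5 bases for all 20, and over all tested genes of 8000 bases or more the median log2 fold change was -0.055. The part of length in the list's values was not tested. Leaving out single libraries turned the sign of the median for 4 of the 7 lists: it ran from -0.014 to 0.0075 for the SRF and MRTF list, from -0.017 to 0.016 for monomer binding, from -0.018 to 0.011 for nucleators and from -0.021 to 0.036 for folding and modification. Over the 7 lists together 0 of 145 tested genes passed with edgeR, and 0 passed with DESeq2 or limma-voom. Each tool had 8 of the 145 genes, or 5.52%, at an unadjusted p under 0.05, against 5.11% of all genes with edgeR.

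**Figure D4:**
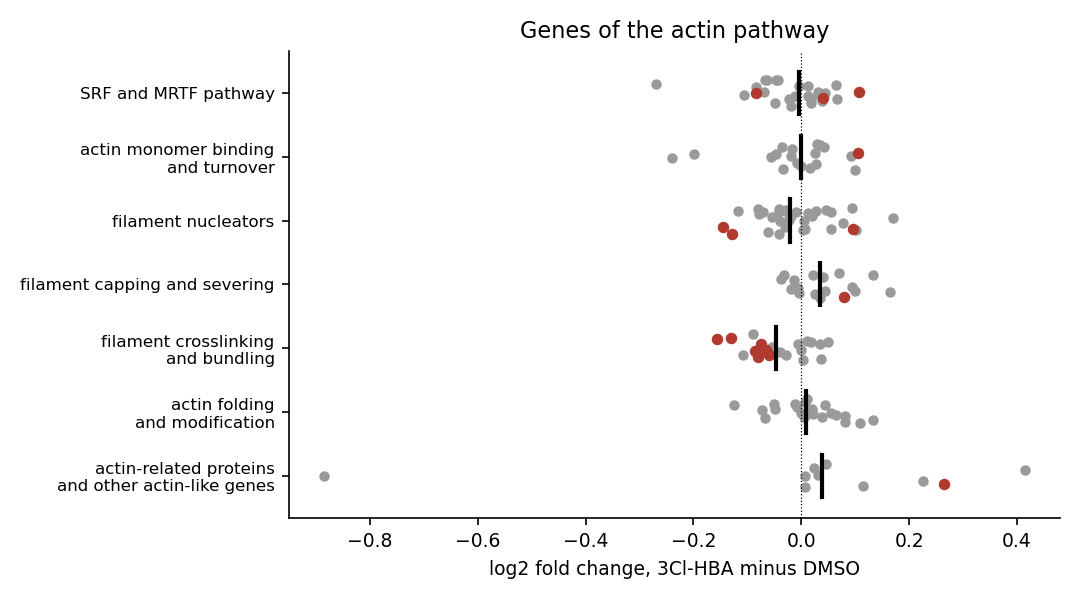
Log2 fold change, 3Cl-HBA minus DMSO, of each tested gene in 7 lists of actin regulators and relatives, with red points for genes whose groups do not overlap and a black bar at each list's median. All 7 red points of the crosslinking and bundling list lie below 0.

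The genes whose levels followed each actin most closely over the 6 libraries were taken from the 11108 that averaged 5 CPM or more, by Pearson's r of log2 CPM, given as a description. All libraries and both groups enter these values, so they share the scaling of each library. Actc1 was closest to Gnl2, Dera and Pa2g4 (r = 0.991, 0.982 and 0.974), and Acta1 to Mocs3, Wiz and Cep85l (0.985, 0.977 and 0.977). Acta2 was closest to the chemokine gene Cx3cl1, Nxn and Stx2 (0.990, 0.986 and 0.986), and Actg2 to Dph3, the peroxiredoxin gene Prdx2 and Spc25 (0.978, 0.976 and 0.974). Actb was closest to Tmeff1, the cadherin gene Cdh11 and Fam167a (0.991, 0.985 and 0.985), and Actg1 to Begain, Rbpjl and the tropomyosin gene Tpm2 (0.989, 0.989 and 0.985). With so few libraries high values are common: between 77 and 134 genes reached an r of at least 0.9 with each member.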

How the data were processed

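The authors deposited raw read counts per gene for the whole series, and FPKM values, per the file headers. FPKM equalled the count divided by gene length and library total within a relative gap of 8.2e-08, and gene length is another deposited column. Ribosomal RNA was removed with a KAPA RiboErase kit and DESeq2 was used, per the labels' protocols. The aligner, counting program, strand setting, genome build and annotation are not stated, so handling of reads that match several actin genes is unknown. Columns were assigned through the treatment protocol and titles.

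The test across genes used edgeR 4.0.16 in R 4.3.3: TMM scaling, filterByExpr (minimum count 10), glmQLFit with robust set, then glmQLFTest, adjusted by Benjamini-Hochberg over 13903 genes. The procedure was tested on simulated data. Alternatives were DESeq2 1.42.0, limma-voom (limma 3.58.1), other scalings, no filter, a replicate block and leaving out each library. SEs are the absolute log2 fold change divided by the square root of F. CPM use TMM-scaled totals. Shares and ratios were tested by exact permutation over libraries (two-sided). Members and lists were chosen with earlier results of these data known. Named genes were the members, the 3 most abundant tested genes of each list, Srf and its coactivators, the closest 3 genes in pattern for each member, and genes marked as chosen after their values were seen. Of 156 symbols in the 7 lists 154 were matched, some through RefSeq, and Mrtfb and Actl8 were not analysed here.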

Additional observations from a re-analysis of the deposited data

How the results depend on the processing

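Each member stayed on the same side of the threshold under all 12 alternatives, and the signs of Actc1, Actb, Actg1 and Actg2 were kept throughout. Leaving out single libraries moved the log2 fold change of Acta1 from -0.0232 to 0.0568, with the negative values -0.0232, -0.0060 and -4.8e-05, and that of Acta2 from -0.0225 to 0.0617. It moved the skeletal share difference from -0.0820 to 0.00871 percentage points, the smooth muscle share from -0.295 to 0.0694, the log2 ratio of Acta1 to Actc1 from -0.0407 to 0.0075 (positive at 0.0072, 0.0024 and 0.0075), and that of Acta2 to Actc1 from -0.0381 to 0.0131 (positive at 0.0131 and 0.0057). The cause was not tested. The count of all genes past the threshold, 0, became 1 with limma-voom, 2 with no filter and 0 to 8 when single libraries were left out (1, 8, 2 and 3 without DMSO replicate 2, DMSO replicate 3, 3Cl-HBA replicate 2 and 3Cl-HBA replicate 3), while no listed gene passed in any of these fits. Equal replicate numbers gave correlations of deviations of -0.074, -0.039 and -0.040, so no shared deviation was measured and the numbers were not used as pairs. The labels do not say whether they mark pairs. With the replicate block 0 genes passed, and share and ratio tests then cannot give a p below 0.25. Counting error was largest for Actg2, at 4.0% to 4.7% per library. The level of Actg1 is limited by reads that may have been split with Actg1l1, which was not tested.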

Other observations

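Lmod2, the leiomodin of heart muscle that elongates thin filaments, was barely counted, with a mean of 0.013 CPM and 0.076 CPM in its highest library. The annotation behind its row is not stated, so the low count need not mean low expression, which was not tested. Lmod2 was named after its value was seen. The cytoplasmic actin-like gene Actbl2 had 0 reads in each library.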
